A study of Mus musculus with 12 samples.

Results

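Integrins are the cell's receptors for extracellular matrix, and laminins are the matrix glycoproteins that many of them bind. All protein-coding mouse genes of GENCODE M21 with an integrin alpha symbol in digits, Itgav, an integrin beta symbol or a laminin chain symbol were taken from the deposited expression table, 32 genes of 40384 gene IDs. Of these, 21 encode integrin subunits (13 alpha and 8 beta) and 11 encode laminin chains. The classes of alpha subunit used throughout were collagen-binding (Itga1, Itga2, Itga10, Itga11), RGD-binding (Itga5, Itga8, Itgav, Itga2b), laminin-binding (Itga3, Itga6, Itga7) and other (Itga4, Itga9). The leukocyte subunits Itgal, Itgam, Itgax, Itgad and Itgae fall outside this choice by their names.

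The 12 RNA-seq libraries formed 4 groups of 3. The iPSC libraries came from induced pluripotent stem cells. The other groups were 4F2A cells, fibroblasts that carry doxycycline-inducible Oct4, Sox2, Klf4 and Myc transgenes. D4_DUX was labelled as day 4 of reprogramming with treatment OE-DUX, an overexpression lasting 48 h, D4 as day 4 with its control treatment OE-NC, and MEF as the fibroblasts with no time or treatment. Day 4 cells of both treatments keep the cell type MEF in their labels. The fibroblasts were from male embryos homozygous for 4F2A, taken at embryonic day E13.5, and the culture text, with LIF and 2 μg/mL doxycycline, is given for every sample, iPSC and MEF included. The labels name no clone for the iPSC libraries and do not say whether libraries of a group were separate cultures, so p-values measure only the spread between these samples, which may be technical.

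An integrin is a dimer of an alpha and a beta subunit. The alpha subunit largely sets the ligand: collagens for the class with Itga11, matrix proteins with an arginine-glycine-aspartate (RGD) motif such as fibronectin and vitronectin for the class with Itga5 and Itgav, and laminins for the class with Itga6. Itgb1 pairs with most alpha subunits, whereas Itgb4 pairs with Itga6 alone and ties laminin to keratin filaments in the hemidesmosomes of epithelia. A laminin is a trimer of an alpha, a beta and a gamma chain and forms the sheet of basement membranes that underlies epithelia and surrounds the early embryo's cell layers.

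Promoter sequence is shown for 3 members, picked after their values were seen, because each moved the same way in both comparisons among MEF and day 4 cells: Itga11 and Itga5 were lower in D4 than in MEF and lower in libraries labelled D4_DUX than in D4, and Lama5 was higher in both comparisons. Other members did so too, with Itga1, Itga9, Itgav, Itgb2 and Lamb1 lower and Itgb4 and Lamb3 higher in both, so this trait is not particular to those shown. D4 and D4_DUX are parallel treatments at day 4, not successive stages. Each sequence is the 250 bases before the gene's start in RefSeq (build GRCm38.p6), 5′ to 3′ on the gene's strand. RefSeq starts can differ from those of M21. The Itga11 window ends inside the M21 gene, which starts at 62677826. The Itga5 window stops short of the M21 gene, and the 50 bases after it were not found whole in an M21 transcript of Itga5. Itga11 is chr9:62677605-62677854, plus strand. Itga5 is chr15:103366792-103367041, minus strand. Lama5 is chr2:180225860-180226109, minus strand. Capitals mark matches, on either strand, to GC box GGGCGG and E-box CACCTG; the other motifs searched gave no match in these windows.
Itga11: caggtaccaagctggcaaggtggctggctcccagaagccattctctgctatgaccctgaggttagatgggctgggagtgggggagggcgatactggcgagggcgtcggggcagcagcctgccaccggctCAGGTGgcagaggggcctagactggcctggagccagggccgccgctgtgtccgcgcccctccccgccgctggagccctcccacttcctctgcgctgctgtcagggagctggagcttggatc
Itga5: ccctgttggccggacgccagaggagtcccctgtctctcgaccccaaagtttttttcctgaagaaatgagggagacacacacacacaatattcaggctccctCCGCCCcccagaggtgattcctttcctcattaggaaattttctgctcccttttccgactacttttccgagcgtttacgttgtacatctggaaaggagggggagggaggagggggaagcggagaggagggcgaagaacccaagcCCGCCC
Lama5: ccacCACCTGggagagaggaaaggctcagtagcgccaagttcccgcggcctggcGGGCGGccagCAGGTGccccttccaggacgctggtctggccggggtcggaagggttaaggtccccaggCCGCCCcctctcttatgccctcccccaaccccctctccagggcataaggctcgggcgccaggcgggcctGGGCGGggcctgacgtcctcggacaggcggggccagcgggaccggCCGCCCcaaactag

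RefSeq promoter windows were matched for 21 of the 32 members and not for, among others, Itga6, Itga7, Itgb2, Itgb3, Itgb4, Lama1, Lama3, Lama4, Lamc1 and Lamc3. At the first listed start, the GC box was in 7 of the 21 windows, against 32.7% of all 32851 windows of that length, and the E-box was in 6 of 21, against 17.2%. The TEAD motif GGAATG was in 2 of 21, against 12.6%. The AP-1 motif TGANTCA was in 0 of 21, against 6.75%, the octamer ATGCAAAT in 0 of 21, against 1.60%, and the TATA box TATAAA in 0 of 21, against 12.4%. No matches of different motifs overlapped. These are matches of letters in the windows searched.

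Levels are given as FPKM, fragment counts scaled to gene length and to library size, as deposited. Libraries held 22530105 to 28133177 counted fragments, as derived from the steps between low values,, and 14287 to 15834 genes were at an FPKM of at least 1. Duxf3, the M21 name of Dux, was under 3 fragments in 12 of 12 libraries, with a highest value of 1.75 fragments, and was listed at 0 FPKM in the 3 libraries labelled D4_DUX; these values do not check the overexpression, and D4_DUX is used as a label. Summed over 8 pluripotency markers, FPKM was 1280 to 1430 in iPSC, 0.530 to 0.661 in libraries labelled D4_DUX, 0.657 to 0.748 in D4 and 0.216 to 0.478 in MEF. Summed over 8 fibroblast markers, it was 458 to 650 in iPSC, 2090 to 2160 in libraries labelled D4_DUX, 2840 to 2970 in D4 and 5610 to 5750 in MEF.

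Most integrin and laminin genes tested were called in each comparison. So were 61.8% of all genes in D4 against MEF, 82.4% in iPSC against D4 and 82.2% in iPSC against MEF. In libraries labelled D4_DUX against D4 the share was 35.4%. In D4 against MEF, 9 of 10 tested laminin chains and 3 of 3 laminin-binding integrins were higher and 3 of 4 collagen-binding integrins lower. Among all genes, 34.2% were higher there and 27.6% lower. Most members that changed in libraries labelled D4_DUX were lower than in D4, with Itgb4, Lama5 and Lamb3 as the exceptions. Among all genes, 20.1% were higher and 15.4% lower in that comparison. In iPSC, 4 of 4 RGD-binding integrins were lower than in D4 and lower than in MEF. Of all genes, 33.9% were lower than in D4 and 31.2% lower than in MEF. Among the 4, Itga2b and Itga8 were under an FPKM of 1 in iPSC and entered the test through other groups. Lama1 and Lama3 stood far above all other libraries in iPSC. Itgb4 had the widest range of group means of the 32 members, 273.2-fold between libraries labelled D4_DUX and MEF.

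Differences were tested with limma on log2(FPKM + 1) across 17114 genes with an FPKM of at least 1 in at least 3 libraries, and a gene was called at a Benjamini-Hochberg adjusted p under 0.05. Fold changes are on this scale, which understates the change of genes at low FPKM, and ± after a fold change is its SE. Of the 32 members, 29 passed this filter and were tested, and Itgb6, Itgb8 and Lamc3 were not. Itga2, Itga10 and Lama3 passed through their iPSC libraries alone and had to differ there, so their iPSC differences are given as description. Itga1, Itga2b, Itga8 and Lama2 were under an FPKM of 1 in every iPSC library and passed through other groups, which favoured a lower level in iPSC. In D4 against MEF, 19 of 29 members were called higher and 9 lower, where 61.8% of all genes tested were called, 34.2% higher and 27.6% lower. In libraries labelled D4_DUX against D4, 3 of 29 were higher and 17 lower, where 35.4% of all genes were called, 20.1% higher and 15.4% lower. The median log2 fold change over the tested members was 0.33 in D4 against MEF, beside 0.03 over all genes tested; the members' median was 0.69 with a pseudocount of 0.1, 0.69 with voom and 0.74 with only genes at FPKM of at least 5. It was -0.24 in libraries labelled D4_DUX against D4, beside 0.02 over all genes. Values of the groups did not overlap for 28 of 29 members in D4 against MEF, where this held for 66.5% of all genes, and for 23 of 29 in libraries labelled D4_DUX against D4, where it held for 50.5%.

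In iPSC against D4, 9 of 29 members were higher and 18 lower, where 82.4% of all genes were called, 48.5% higher and 33.9% lower. In iPSC against MEF, 15 were higher and 14 lower, where 82.2% of all genes were called, 51.0% higher and 31.2% lower. Itga2, Itga10 and Lama3 are among the higher ones in both comparisons, which passing the filter through iPSC alone required of them. With so many genes called, these counts say little of the members beyond their direction. Median log2 fold changes over the members were -0.51 in iPSC against D4 and 0.11 in iPSC against MEF, beside 0.15 and 0.21 over all genes. In iPSC against MEF the median was -0.11 after median-ratio scaling and -0.08 under quantile normalization, and in iPSC against D4 it was -0.88 with voom on recovered fragments and -0.88 with only genes at FPKM of at least 5. Quantile normalization shifted the median of all genes by -0.23 in iPSC against D4 and by -0.27 in iPSC against MEF, and the share of called genes that were higher was then 46.7%, against 58.8% as deposited, in iPSC against D4 and 46.6%, against 62.1% as deposited, in iPSC against MEF. Small iPSC differences are read with that shift in mind. The 4 comparisons share D4 and MEF libraries, so their values are set side by side and not counted as separate evidence.

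**Figure D1:**
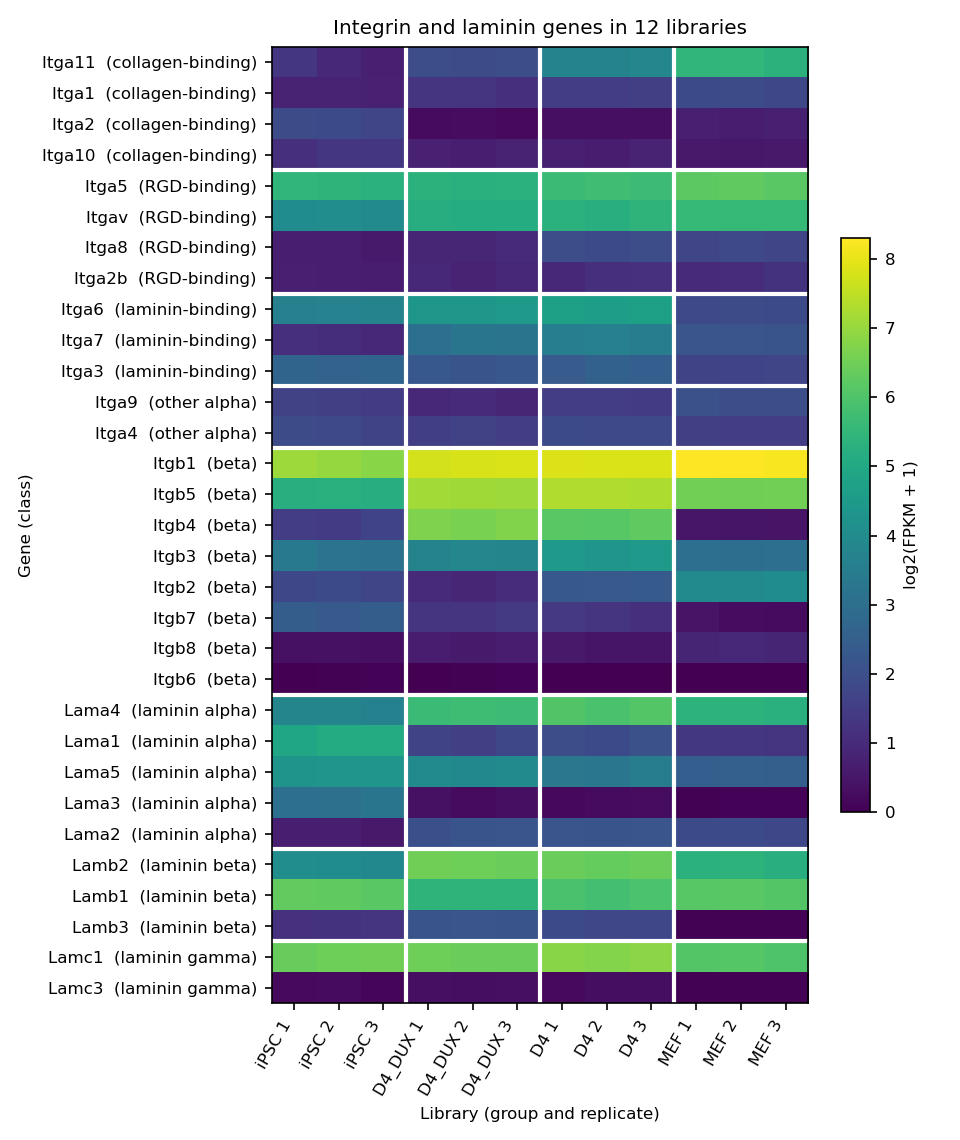
Log2(FPKM + 1) of 31 integrin and laminin genes (rows, grouped by class) in 12 libraries (columns, 3 for each of iPSC, D4_DUX, D4 and MEF). Itgb1 is bright in all columns, Itgb4 is bright only in the day 4 columns of both treatments, and Lama1 and Lama3 are brightest in iPSC.

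Among the collagen-binding class, Itga11 carried most of the signal in MEF and was lower in all other groups. Itga11 (chr9:62677826-62783982, plus strand) encodes the alpha subunit of a collagen receptor of fibroblasts. Itga11 was at 1.46, 0.953 and 0.653 FPKM in iPSC, 2.94, 2.83 and 2.87 FPKM in libraries labelled D4_DUX, 12.1, 12.2 and 13.3 FPKM in D4 and 43.0, 44.6 and 39.1 FPKM in MEF. The groups did not overlap, and the iPSC libraries differed among themselves by more than the libraries of the other groups did relative to their level. The log2 fold change was -1.80 ± 0.11 (SE, adjusted p = 1.15e-06) in libraries labelled D4_DUX against D4 and -1.67 ± 0.11 (SE, adjusted p = 1.45e-07) in D4 against MEF. It was -2.76 ± 0.11 (SE, adjusted p = 4.66e-10) in iPSC against D4 and -4.43 ± 0.11 (SE, adjusted p = 9.59e-12) in iPSC against MEF. Itga11 was thus 4.36-fold lower in libraries labelled D4_DUX than in D4 and 3.37-fold lower in D4 than in MEF, by mean FPKM. Fibroblast markers moved with it: 6 of 8 were lower in libraries labelled D4_DUX than in D4, and D4 had 7 of 8 lower than MEF. Their part in the result was not tested, and in bulk RNA fewer cells of a type and less RNA per cell cannot be told apart.

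The other collagen receptors were low. Itga1, a receptor for basement membrane and fibrillar collagens, ranged from 0.689 to 2.76 FPKM over the 12 libraries, in the same order of groups as Itga11. It had log2 fold changes of -0.31 ± 0.05 (SE, adjusted p = 0.00078) in libraries labelled D4_DUX against D4 and -0.33 ± 0.05 (SE, adjusted p = 0.000113) in D4 against MEF. Itga2, a collagen receptor of epithelia and platelets, was at 2.29 to 2.80 FPKM in iPSC and was lower in the 9 other libraries, at 0.152 to 0.203 FPKM in libraries labelled D4_DUX, 0.259 to 0.274 FPKM in D4 and 0.578 to 0.650 FPKM in MEF. Its log2 fold change was -0.36 ± 0.06 (SE, adjusted p = 0.000154) in D4 against MEF. Its difference of -0.11 ± 0.06 (SE, adjusted p = 0.17) in libraries labelled D4_DUX against D4 was not called, but was called with a pseudocount of 0.1 (-0.41, adjusted p = 0.0154). Itga10, a cartilage collagen receptor, ranged from 0.457 to 1.49 FPKM, highest in iPSC; its D4 against MEF call (0.16 ± 0.06, adjusted p = 0.0452) was lost without any 1 of the D4_DUX or MEF libraries, D4 replicate 1 or D4 replicate 3 (adjusted p 0.0503 to 0.159). Itga1 shares bases on its strand with Pelo and Gm49395, and Itga10 with Gm42957, so the division of fragments among them is uncertain.

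The RGD-binding class held most of the alpha-subunit signal in every group, through the fibronectin receptor subunit Itga5 and through Itgav, which pairs with several beta subunits to bind vitronectin, fibronectin and latent TGF-beta. Itga5 was at 42.9, 41.2 and 38.5 FPKM in iPSC, 39.6, 37.9 and 38.1 FPKM in libraries labelled D4_DUX, 50.02, 52.6 and 50.4 FPKM in D4 and 73.0, 76.5 and 71.5 FPKM in MEF. MEF was highest and D4 next, and iPSC and D4_DUX overlapped. Itgav was at 15.5, 16.0 and 14.2 FPKM in iPSC, 34.9, 34.5 and 34.5 FPKM in libraries labelled D4_DUX, 38.8, 36.7 and 41.0 FPKM in D4 and 46.0, 46.1 and 45.8 FPKM in MEF. Here the order was MEF, D4, D4_DUX and iPSC, without overlap, though D4_DUX and D4 were close. Itga5 fell in libraries labelled D4_DUX against D4 (-0.40 ± 0.04, adjusted p = 4.7e-05) and in D4 against MEF (-0.52 ± 0.04, adjusted p = 7.66e-07). Itgav fell by less in D4 against MEF (-0.24 ± 0.04, adjusted p = 0.000738), and its call in libraries labelled D4_DUX against D4 (-0.16 ± 0.04, adjusted p = 0.0177) was lost when D4_DUX replicate 2 or 3 or D4 replicate 3 was left out (adjusted p 0.0506, 0.0513 and 0.0670). In iPSC against D4, the log2 fold change was -1.30 ± 0.04 (SE, adjusted p = 1.22e-10) for Itgav and -0.32 ± 0.04 (SE, adjusted p = 2.58e-05) for Itga5.

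Itga8, a nephronectin receptor subunit of mesenchyme, was lower in libraries labelled D4_DUX, at 0.865 to 1.02 FPKM, than in D4, at 2.61 to 2.92 FPKM (-0.99 ± 0.06, adjusted p = 7.2e-07). It was at 0.527 to 0.607 FPKM in iPSC and 2.29 to 2.60 FPKM in MEF. Its small difference in D4 against MEF (0.16 ± 0.06, adjusted p = 0.0329) was lost with a replicate block (adjusted p = 0.0582), after median-ratio scaling (adjusted p = 0.132), in 4 further settings and without D4 replicate 1 or 3 or MEF replicate 1 or 3 (adjusted p 0.0931 to 0.108). Itga2b, the alpha subunit of the platelet fibrinogen receptor, ranged from 0.538 to 1.33 FPKM over the 12 libraries. It was not called in libraries labelled D4_DUX against D4 (-0.18 ± 0.08, adjusted p = 0.0912; 0.0290 without D4 replicate 1) or in D4 against MEF (-0.03 ± 0.08, adjusted p = 0.809), and was lower in iPSC than in MEF (-0.42 ± 0.08, adjusted p = 0.000356). Summed over 5 further platelet and megakaryocyte markers, FPKM was 14.9 to 20.1 in iPSC, 2.16 to 2.65 in libraries labelled D4_DUX, 5.43 to 7.30 in D4 and 7.45 to 10.2 in MEF; their part in the Itga2b level was not tested.

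In the laminin-binding class, all 3 members rose in D4 against MEF and all 3 fell in libraries labelled D4_DUX against D4. Itga6 (chr2:71745616-71858416, plus strand), the laminin receptor subunit of epithelia and stem cells, differed most between D4 and MEF; it shares bases on its strand with Gm13662 and Gm13663. Itga6 was at 11.1, 11.7 and 12.2 FPKM in iPSC, 20.2, 20.2 and 20.8 FPKM in libraries labelled D4_DUX, 25.6, 24.3 and 25.1 FPKM in D4 and 2.56, 2.81 and 2.61 FPKM in MEF. No groups overlapped, and D4 was highest. Itga7 was at 1.18, 1.13 and 0.931 FPKM in iPSC, 7.21, 8.36 and 8.08 FPKM in libraries labelled D4_DUX, 10.8, 11.3 and 10.6 FPKM in D4 and 3.60, 3.57 and 3.50 FPKM in MEF. Itga7, a laminin receptor subunit best known from muscle, had the same order at day 4 but was lowest in iPSC. Itga3 was at 5.33, 5.05 and 5.37 FPKM in iPSC, 3.91, 3.42 and 3.80 FPKM in libraries labelled D4_DUX, 4.19, 4.99 and 4.56 FPKM in D4 and 2.27, 2.19 and 2.30 FPKM in MEF. Itga3, a receptor for epithelial laminins, was highest in iPSC and lowest in MEF.

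By mean FPKM, Itga6 was 9.41-fold higher in D4 than in MEF (2.83 ± 0.04, adjusted p = 5.33e-13). Itga7 was 3.07-fold higher (1.39 ± 0.06, adjusted p = 3.37e-09) and Itga3 2.03-fold higher (0.78 ± 0.06, adjusted p = 4.17e-07). The falls in libraries labelled D4_DUX against D4 were smaller: -0.28 ± 0.04 (SE, adjusted p = 0.000431) for Itga6, -0.43 ± 0.06 (SE, adjusted p = 0.000316) for Itga7 and -0.24 ± 0.06 (SE, adjusted p = 0.00854) for Itga3. In iPSC against MEF, Itga6 was higher (1.79 ± 0.04, adjusted p = 4.35e-12), Itga3 was higher (0.94 ± 0.06, adjusted p = 2.39e-08) and Itga7 was lower (-1.13 ± 0.06, adjusted p = 5.24e-09). Itga6 was 2.14-fold lower in iPSC than in D4 (-1.03 ± 0.04, adjusted p = 3.82e-10). Itga3's small difference from D4 in iPSC (0.17 ± 0.06, adjusted p = 0.022) turned to -0.07 under quantile normalization and was not called there, nor without iPSC replicate 1 or 3 or D4 replicate 1 (adjusted p 0.0570, 0.0637 and 0.0990).

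Set side by side, the classes took different shares of the summed FPKM of the 13 alpha subunits. Collagen-binding subunits held 6.68% ± 0.38 in iPSC, 4.41% ± 0.05 in libraries labelled D4_DUX, 9.96% ± 0.39 in D4 and 25.2% ± 0.88 in MEF (SD, n = 3 each). Laminin-binding subunits held 21.1% ± 1.45 in iPSC, 27.9% ± 0.70 in libraries labelled D4_DUX, 26.3% ± 0.52 in D4 and 4.64% ± 0.10 in MEF. RGD-binding subunits held 66.9% ± 0.83 in iPSC, 65.2% ± 0.66 in libraries labelled D4_DUX, 60.9% ± 0.20 in D4 and 67.5% ± 0.77 in MEF. The laminin-binding share was above the collagen-binding one in D4 and below it in MEF. In libraries labelled D4_DUX the laminin-binding share lay above that of D4 without overlap, although the 3 genes were lower there. The RGD-binding share was above that of D4 too, although the RGD-binding sum was lower. That sum was 73.9 to 76.2 FPKM in libraries labelled D4_DUX, against 92.6 to 95.6 FPKM in D4. Relative to its level, the collagen-binding sum was lower by more, and the collagen-binding share was lower. Its mean sum was 5.065 FPKM in libraries labelled D4_DUX, against 15.34 FPKM in D4. The shares rest on Itga5, Itgav, Itga11 and Itga6, and without Itga5, the most abundant, the collagen-binding share of MEF was 42.2%.

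**Figure D2:**
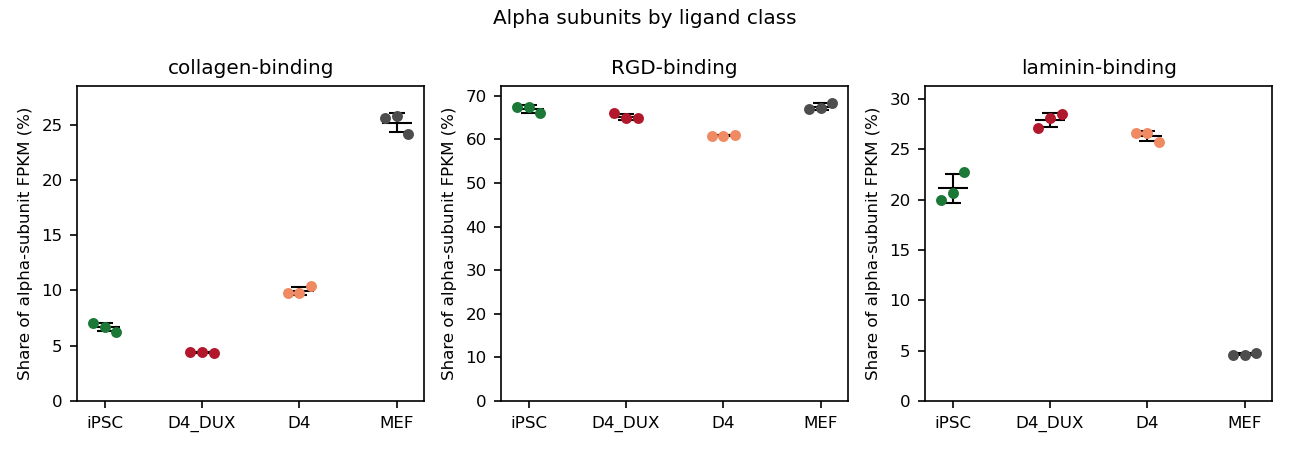
Share of the summed FPKM of 13 integrin alpha subunits (percent) held by collagen-binding, RGD-binding and laminin-binding subunits in iPSC, D4_DUX, D4 and MEF. Points are libraries, and the black mark and bar are the mean and SD of 3 libraries; the collagen-binding share is highest in MEF at 25.2%, and the laminin-binding share is lowest there at 4.64%.

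The alpha subunits outside these classes stayed low. Itga4, which binds VCAM-1 and fibronectin, ranged from 1.83 to 2.75 FPKM, and Itga9, a tenascin and VCAM-1 receptor subunit, from 0.869 to 3.17 FPKM. Both were lower in libraries labelled D4_DUX than in D4, with log2 fold changes of -0.29 ± 0.06 for Itga4 and -0.53 ± 0.05 for Itga9. In D4 against MEF, Itga4 was higher (0.33 ± 0.06, adjusted p = 0.00044) and Itga9 lower (-0.51 ± 0.05, adjusted p = 5.88e-06). In iPSC against D4 neither was called as deposited, at -0.04 ± 0.06 (SE, adjusted p = 0.562) and 0.08 ± 0.05 (SE, adjusted p = 0.203), and under quantile normalization both were lower (-0.32 and -0.21). Itga4 was higher in iPSC than in MEF (0.29 ± 0.06, adjusted p = 0.000634), a call lost under quantile normalization (0.01, adjusted p = 0.890).

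Among beta subunits, Itgb4 was abundant at day 4 and close to absent in MEF. Itgb4 (chr11:115974709-116008412, plus strand) is the hemidesmosomal partner of Itga6. Itgb4 was at 1.84, 1.81 and 2.18 FPKM in iPSC, 103, 99.0 and 104 FPKM in libraries labelled D4_DUX, 70.7, 70.3 and 76.9 FPKM in D4 and 0.405, 0.370 and 0.346 FPKM in MEF. The MEF values rest on 61 to 68.2 fragments per library, and the groups did not overlap. Itgb4 was 194-fold higher in D4 than in MEF by mean FPKM (5.74 ± 0.05, adjusted p = 1.46e-14), and 1.41-fold higher in libraries labelled D4_DUX than in D4 (0.49 ± 0.05, adjusted p = 4.89e-05), in 3 of 3 libraries. It was 37.4-fold lower in iPSC than in D4 (-4.65 ± 0.05, adjusted p = 1.62e-14) and 5.2-fold higher in iPSC than in MEF (1.10 ± 0.05, adjusted p = 2.05e-09). Between the day 4 treatments Itgb4 and Itga6 moved in opposite directions, each past the threshold.

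Markers of mesothelium, the epithelium that lines body cavities, were likewise highest at day 4. Summed over Msln, Upk3b, Lrrn4 and Wt1, FPKM was 2.49 to 3.11 in iPSC, 522 to 535 in libraries labelled D4_DUX, 364 to 389 in D4 and 4.29 to 4.85 in MEF. Msln carried most of the day 4 sums. Of the 4, 3 were higher in libraries labelled D4_DUX than in D4 and 4 were higher in D4 than in MEF, and none was at 0 in all libraries of a group. Wt1 was the exception at day 4, at a mean of 2.39 FPKM in libraries labelled D4_DUX and 2.96 FPKM in D4. Krt19, also counted as a mesothelial marker, was summed with the epithelial markers instead. Its mean was 1.59 FPKM in iPSC, 9.66 FPKM in libraries labelled D4_DUX, 3.53 FPKM in D4 and 3.56 FPKM in MEF, so it did not rise in D4 against MEF. Summed over 7 epithelial markers such as Cdh1 and Krt8, FPKM was 147 to 160 in iPSC, 27.3 to 28.9 in libraries labelled D4_DUX, 10.4 to 11.8 in D4 and 5.02 to 5.44 in MEF, with 4 of 7 called higher in D4_DUX libraries than in D4 ones and 3 of 7 higher in D4 than in MEF. Whether cells of these kinds carried the Itgb4 and Itga6 signal was not tested.

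Itgb1, the common partner, was the most abundant integrin transcript per length in every group but changed little at day 4. Itgb1 was at 134, 127 and 112 FPKM in iPSC, 214, 221 and 227 FPKM in libraries labelled D4_DUX, 231, 230 and 227 FPKM in D4 and 313, 315 and 301 FPKM in MEF. MEF was highest and iPSC lowest, and D4_DUX lay just under D4. Itgb1 fell in D4 against MEF (-0.43 ± 0.06, adjusted p = 3.63e-05) and in iPSC against D4 (-0.88 ± 0.06, adjusted p = 2.53e-08), and was not called in libraries labelled D4_DUX against D4 (-0.05 ± 0.06, adjusted p = 0.513). The vitronectin receptor subunits Itgb3 and Itgb5, partners of Itgav, both peaked in D4. Itgb3 was at 9.21, 7.91 and 7.56 FPKM in iPSC, 12.01, 13.2 and 12.8 FPKM in libraries labelled D4_DUX, 21.1, 19.2 and 21.1 FPKM in D4 and 7.12, 6.94 and 7.22 FPKM in MEF. Itgb5 was at 37.2, 38.0 and 34.9 FPKM in iPSC, 141, 137 and 136 FPKM in libraries labelled D4_DUX, 159, 158 and 153 FPKM in D4 and 91.6, 89.9 and 91.0 FPKM in MEF. In both genes D4_DUX lay under D4 without overlap.

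Itgb3 was 2.89-fold higher in D4 than in MEF (1.41 ± 0.06, adjusted p = 5.02e-09) and Itgb5 1.73-fold higher (0.78 ± 0.04, adjusted p = 4.06e-09), while their partner Itgav was lower. In libraries labelled D4_DUX against D4, Itgb3 fell (-0.65 ± 0.06, adjusted p = 2.64e-05) and Itgb5 fell by less (-0.19 ± 0.04, adjusted p = 0.00181). In iPSC against D4, Itgb5 was 4.28-fold lower (-2.07 ± 0.04, adjusted p = 2.82e-13) and Itgb3 2.49-fold lower (-1.22 ± 0.06, adjusted p = 4.4e-09). Against MEF, iPSC had less Itgb5 (-1.29 ± 0.04, adjusted p = 1.54e-11), and their Itgb3 difference (0.18 ± 0.06, adjusted p = 0.0193) turned to -0.02 after median-ratio scaling and -0.08 under quantile normalization, where it was not called, nor without iPSC replicate 1 or MEF replicate 2 (adjusted p 0.0737 and 0.0563).

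Itgb2, the beta subunit of leukocyte integrins, was lower in D4 than in MEF and lower in libraries labelled D4_DUX than in D4. Itgb2 was at 2.52, 2.68 and 2.35 FPKM in iPSC, 1.04, 0.857 and 1.054 FPKM in libraries labelled D4_DUX, 3.90, 3.94 and 4.14 FPKM in D4 and 14.3, 14.5 and 15.4 FPKM in MEF. Groups did not overlap, with D4_DUX lowest and MEF highest. The log2 fold change was -1.33 ± 0.06 (SE, adjusted p = 9.25e-08) in libraries labelled D4_DUX against D4 and -1.66 ± 0.06 (SE, adjusted p = 3.78e-10) in D4 against MEF. Of 16 macrophage markers, D4_DUX libraries had 16 lower than D4, and D4 had 16 lower than MEF. Their summed FPKM was 186 to 228 in iPSC, 52.6 to 54.7 in libraries labelled D4_DUX, 204 to 246 in D4 and 1770 to 1810 in MEF. Lyz2 carried the largest part of each sum, and none of the 16 was at 0 in all libraries of a group. Itgam, the alpha partner of Itgb2 on macrophages, fell too, with log2 fold changes of -1.30 ± 0.07 in libraries labelled D4_DUX against D4 and -2.01 ± 0.07 in D4 against MEF. Of 6 further leukocyte integrin genes, Itgam and Itgal were tested; Itgal, the alpha partner of Itgb2 on lymphocytes, was not called between the day 4 treatments (-0.08 ± 0.07) and was lower in D4 than in MEF (-1.74 ± 0.07). The part of macrophages in these results was not tested.

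The remaining beta subunits were low. Itgb7, a lymphocyte subunit that pairs with Itga4, was at 4.00 to 4.41 FPKM in iPSC, 1.39 to 1.65 FPKM in libraries labelled D4_DUX, 1.22 to 1.61 FPKM in D4 and 0.186 to 0.348 FPKM in MEF. Its values in MEF rest on 14.5 to 21.75 fragments per library. It was higher in D4 than in MEF (0.93 ± 0.07, adjusted p = 6.37e-07) and higher in iPSC than in D4 (1.14 ± 0.07, adjusted p = 3.46e-08), and not called between the day 4 treatments (0.06 ± 0.07, adjusted p = 0.595). Itgb8, a partner of Itgav in TGF-beta activation, ranged from 0.262 to 0.914 FPKM and Itgb6, an epithelial partner of Itgav, from 0 to 0.0646 FPKM, at most 12 fragments in a library; neither entered the test.

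**Figure D3:**
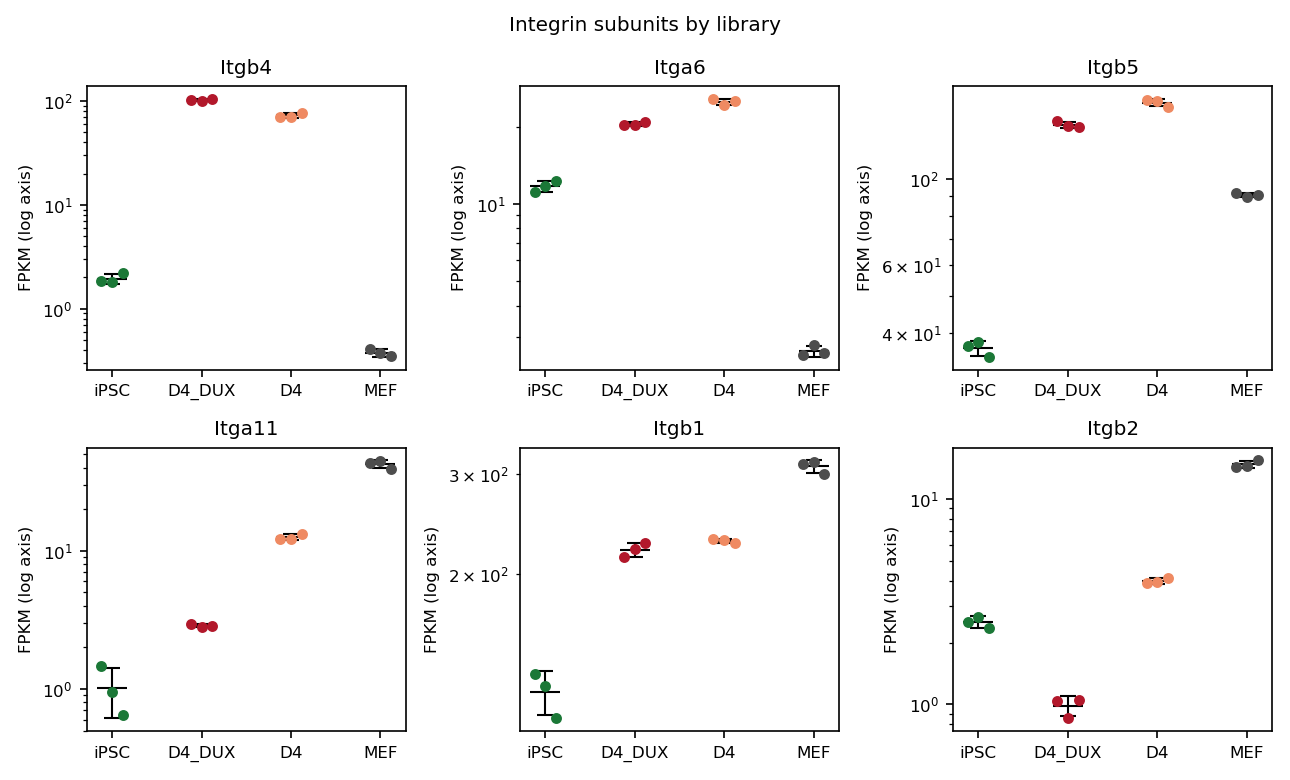
FPKM (log axis, which differs by panel) of Itgb4, Itga6, Itgb5, Itga11, Itgb1 and Itgb2 in iPSC, D4_DUX, D4 and MEF. Points are libraries, and the black mark and bar are the mean and SD of 3 libraries; Itgb4 lies at 70.3 to 76.9 in D4 and 0.346 to 0.405 in MEF, and Itga11 at 2.83 to 2.94 in D4_DUX, 12.1 to 13.3 in D4 and 39.1 to 44.6 in MEF.

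Of the laminin alpha chains, Lama4 dominated in MEF and at day 4, and Lama1 in iPSC. Lama4 is the chain of mesenchymal and vascular laminins. Lama4 was at 12.8, 12.8 and 11.6 FPKM in iPSC, 49.7, 51.6 and 50.9 FPKM in libraries labelled D4_DUX, 65.0, 60.2 and 67.4 FPKM in D4 and 40.6, 40.7 and 38.0 FPKM in MEF. Lama5, the chain of most epithelial basement membranes, had another order. Lama5 was at 18.6, 19.3 and 19.0 FPKM in iPSC, 14.5, 13.7 and 14.2 FPKM in libraries labelled D4_DUX, 9.06, 8.66 and 10.3 FPKM in D4 and 4.62, 4.80 and 4.66 FPKM in MEF. Lama5 was highest in iPSC and lowest in MEF, and D4_DUX lay above D4 without overlap, while Lama4 was highest in D4. Both rose in D4 against MEF, Lama4 by 0.68 ± 0.05 (SE, adjusted p = 3.27e-07) and Lama5 by 0.86 ± 0.05 (SE, adjusted p = 6.05e-08). They moved apart in libraries labelled D4_DUX against D4, with Lama4 lower (-0.33 ± 0.05, adjusted p = 0.000482) and Lama5 higher (0.55 ± 0.05, adjusted p = 2.05e-05). Markers of endothelium, which also makes Lama4, summed to 27.9 to 28.5 FPKM in iPSC, 21.4 to 24.1 FPKM in libraries labelled D4_DUX, 15.1 to 15.3 FPKM in D4 and 0.789 to 0.926 FPKM in MEF; of 8, 3 were tested, with 2 higher in libraries labelled D4_DUX than in D4 and 2 higher in D4 than in MEF, Cldn5 was at 0 outside iPSC, and their part was not tested. Tek carried most of this sum at day 4, at a mean of 21.3 FPKM in libraries labelled D4_DUX, 13.3 to 13.9 FPKM over the D4 libraries and 0.113 FPKM in MEF, while Pecam1 carried it in iPSC and was at a mean of 0.123 FPKM in D4 and 0.098 FPKM in MEF.

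Lama1 and Lama3 were highest in iPSC. Lama1 is the chain of the first embryonic basement membranes, and Lama3 joins Lamb3 in the laminin that anchors epidermal hemidesmosomes. Lama1 was at 29.4, 33.8 and 33.8 FPKM in iPSC, 2.25, 1.98 and 2.48 FPKM in libraries labelled D4_DUX, 2.87, 2.66 and 3.17 FPKM in D4 and 1.54, 1.49 and 1.44 FPKM in MEF. Lama3 was at 7.19, 7.39 and 8.46 FPKM in iPSC, 0.288, 0.185 and 0.280 FPKM in libraries labelled D4_DUX, 0.140, 0.193 and 0.206 FPKM in D4 and 0.0268, 0.0486 and 0.0579 FPKM in MEF. In both genes the iPSC libraries stood far above the rest. Lama1 was 11.2-fold higher in iPSC than in D4 (3.10 ± 0.07, adjusted p = 4.51e-12) and 21.7-fold higher than in MEF (3.74 ± 0.07, adjusted p = 1.17e-12), and by mean FPKM Lama3 was 42.7-fold higher than in D4. Lama1 was also higher in D4 than in MEF (0.65 ± 0.07, adjusted p = 1.2e-05); its lower level in libraries labelled D4_DUX than in D4 (-0.27 ± 0.07, adjusted p = 0.0146) was not called without D4_DUX replicate 2 or D4 replicate 3 (adjusted p 0.0581 and 0.0565). The Lama3 call in D4 against MEF (0.17 ± 0.06, adjusted p = 0.0277) was lost without D4 replicate 2 or 3 or MEF replicate 1 or 2 (adjusted p 0.0582 to 0.0798). Parietal and primitive endoderm, which make much Lama1 in the embryo, were checked by 6 markers: their summed FPKM was 176 to 221 in iPSC, 105 to 108 in libraries labelled D4_DUX, 107 to 110 in D4 and 48.8 to 50.2 in MEF, and Sox17 was at 0 outside iPSC. Thbd made up most of these sums save in MEF, at a mean of 179.9 FPKM in iPSC, 78.7 FPKM in libraries labelled D4_DUX, 80.2 FPKM in D4 and 16.9 FPKM in MEF, while Dab2 ran the other way, at 10.1 FPKM in iPSC, 24.5 FPKM in libraries labelled D4_DUX, 24.8 FPKM in D4 and 30.2 FPKM in MEF. Of the 5 tested, 1 was higher in libraries labelled D4_DUX than in D4, and 2 were higher and 1 lower in D4 than in MEF. Sparc, also counted as a marker of these cells but left out of the sums, was lowest in iPSC and above the whole sum in every group. Its mean was 326 FPKM in iPSC, 998.9 FPKM in libraries labelled D4_DUX, 1085 FPKM in D4 and 1081 FPKM in MEF. The part of these cells in the Lama1 level was not tested.

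As shares of the summed FPKM of the 5 alpha chains, Lama4 held 17.2% ± 1.41 in iPSC, 71.8% ± 0.89 in libraries labelled D4_DUX, 80.1% ± 0.49 in D4 and 81.8% ± 0.27 in MEF (SD, n = 3 each). Lama1 held 44.9% ± 1.72 in iPSC, 3.16% ± 0.35 in libraries labelled D4_DUX, 3.61% ± 0.12 in D4 and 3.06% ± 0.07 in MEF. Lama5 held 26.4% ± 0.61 in iPSC, 19.98% ± 0.77 in libraries labelled D4_DUX, 11.6% ± 0.48 in D4 and 9.66% ± 0.32 in MEF. Lama2, the chain of muscle laminin, ranged from 0.483 to 3.60 FPKM, rose in D4 against MEF (0.33 ± 0.06, adjusted p = 0.000429), fell in iPSC against D4 (-1.53 ± 0.06, adjusted p = 2.84e-10) and was not called between the day 4 treatments (-0.06 ± 0.06, adjusted p = 0.512).

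The beta and gamma chains are shared between laminins, and the common ones were abundant in all groups. Lamb1 was at 77.9, 76.7 and 72.0 FPKM in iPSC, 41.1, 41.2 and 41.1 FPKM in libraries labelled D4_DUX, 59.3, 56.1 and 60.2 FPKM in D4 and 70.02, 72.1 and 67.0 FPKM in MEF. Lamb2 was at 15.7, 15.5 and 13.7 FPKM in iPSC, 90.4, 86.8 and 84.5 FPKM in libraries labelled D4_DUX, 83.4, 79.7 and 84.0 FPKM in D4 and 38.3, 39.9 and 36.4 FPKM in MEF. Lamb1 was lowest in D4_DUX, and iPSC and MEF overlapped, whereas Lamb2 was lowest in iPSC and highest at day 4. Lamb2 was 2.15-fold higher in D4 than in MEF (1.09 ± 0.05, adjusted p = 7.37e-09) and Lamb1 lower (-0.25 ± 0.04, adjusted p = 0.000214). In libraries labelled D4_DUX against D4, Lamb1 fell (-0.50 ± 0.04, adjusted p = 6.37e-06) and Lamb2 was not called (0.08 ± 0.05, adjusted p = 0.252), although its groups did not overlap. In iPSC against D4, Lamb2 was 5.5-fold lower (-2.39 ± 0.05, adjusted p = 2.32e-12) and Lamb1 higher (0.36 ± 0.04, adjusted p = 4.33e-06). The small Lamb1 difference of iPSC from MEF (0.11 ± 0.04, adjusted p = 0.0201) changed sign after median-ratio scaling (-0.11, adjusted p = 0.0273) and was not called without iPSC replicate 1 or 2 or MEF replicate 3 (adjusted p 0.0681, 0.0617 and 0.0847).

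Lamc1 was at 82.8, 88.3 and 89.0 FPKM in iPSC, 87.2, 85.5 and 86.0 FPKM in libraries labelled D4_DUX, 113, 107 and 116 FPKM in D4 and 66.8, 68.7 and 63.9 FPKM in MEF. Lamc1, the gamma chain of most laminins, was highest in D4, with iPSC and D4_DUX overlapping. Lamc1 rose in D4 against MEF (0.74 ± 0.04, adjusted p = 2.47e-08) and fell in libraries labelled D4_DUX against D4 (-0.37 ± 0.04, adjusted p = 5.45e-05). Lamb3 was at 1.28 to 1.39 FPKM in iPSC, 3.47 to 3.55 FPKM in libraries labelled D4_DUX, 2.42 to 2.67 FPKM in D4 and 0.0258 to 0.0336 FPKM in MEF, the last from 4 to 6 fragments per library. It was 82.1-fold higher in D4 than in MEF by mean FPKM (1.77 ± 0.04, adjusted p = 4.37e-11) and higher in libraries labelled D4_DUX than in D4 (0.36 ± 0.04, adjusted p = 0.000132). G0s2 overlaps Lamb3 on the other strand, at a mean of 23.4 FPKM in iPSC, 1.98 in libraries labelled D4_DUX, 2.5 in D4 and 2.38 in MEF. Whether counting used strand is not given, so the Lamb3 values may hold reads of it. Lamb3 also shares bases of its span on its own strand with Gm37691. That gene was at a mean of 3.68 FPKM in iPSC and at most 0.0446 FPKM in the other groups. The division of fragments between them is uncertain, above all in iPSC.

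Partner chains and subunits were unequal in level. Lama3 stood below Lamb3 in libraries labelled D4_DUX, at 0.185 to 0.288 against 3.47 to 3.55 FPKM, and in D4, at 0.140 to 0.206 against 2.42 to 2.67 FPKM. In iPSC the order was the other way, with Lama3 at 7.19 to 8.46 and Lamb3 at 1.28 to 1.39 FPKM. Itgb4, at 70.3 to 76.9 FPKM in D4, stood above its partner Itga6, at 24.3 to 25.6 FPKM, whereas in iPSC and MEF it stood below it. Lamc3, a gamma chain of retina and other tissues, ranged from 0.0280 to 0.263 FPKM and did not enter the test.

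**Figure D4:**
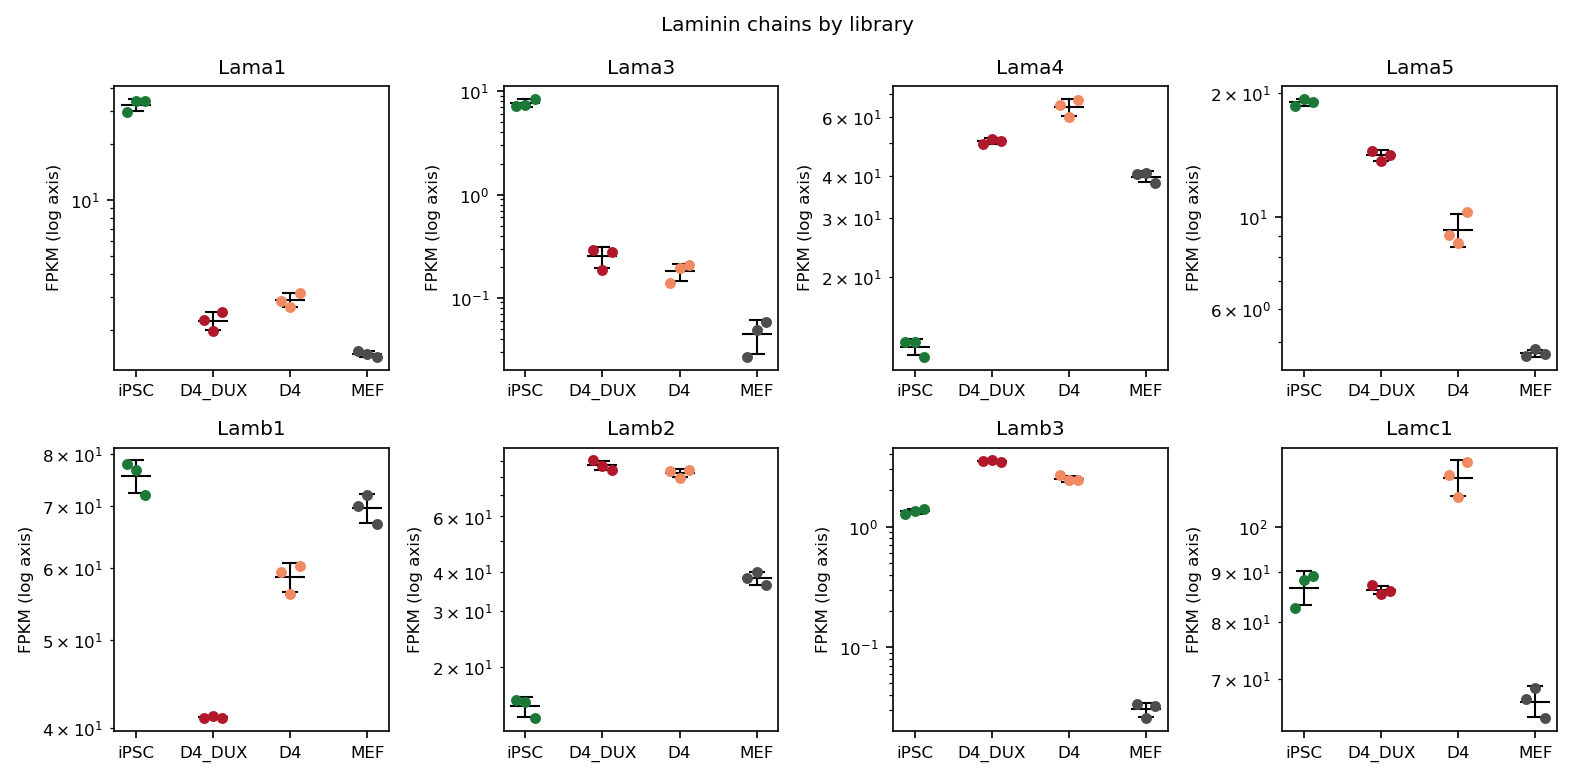
FPKM (log axis, which differs by panel) of Lama1, Lama3, Lama4, Lama5, Lamb1, Lamb2, Lamb3 and Lamc1 in iPSC, D4_DUX, D4 and MEF. Points are libraries, and the black mark and bar are the mean and SD of 3 libraries; Lama1 is at 29.4 to 33.8 in iPSC and at most 3.17 elsewhere, and Lamb3 is at 2.42 to 2.67 in D4 and 0.0258 to 0.0336 in MEF.

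By class, D4 against MEF, where 34.2% of all genes were higher and 27.6% lower, gave 3 higher and 0 lower of 3 laminin-binding subunits, 1 higher and 3 lower of 4 collagen-binding, 1 higher and 2 lower of 4 RGD-binding, 4 higher and 2 lower of 6 tested beta subunits, and 9 higher and 1 lower of 10 tested laminin chains. Libraries labelled D4_DUX against D4, where 20.1% of all genes were higher and 15.4% lower, gave 0 higher in every alpha class, with 3 of 3 laminin-binding, 2 of 4 collagen-binding, 3 of 4 RGD-binding and 2 of 2 other alpha subunits lower, and 1 higher and 3 lower of 6 beta subunits. Laminin chains gave 2 higher and 4 lower of 10 there. Of the 29 tested members, 9 were highest on average in iPSC, 3 in libraries labelled D4_DUX (Itgb4, Lamb2 and Lamb3), 9 in D4 and 8 in MEF. Of the 9 in iPSC, 3 (Itga2, Itga10 and Lama3) passed the filter through iPSC alone and so had to be highest there. In iPSC, where 82.4% of all genes were called against D4 and 82.2% against MEF, the RGD-binding class gave 0 higher and 4 lower of 4 against D4 and again against MEF. Of these 4, Itga2b and Itga8 passed the filter without an iPSC library. The other counts in iPSC were mixed: laminin-binding subunits gave 1 higher and 2 lower of 3 against D4 and 2 higher and 1 lower against MEF, beta subunits 1 higher and 5 lower of 6 against D4 and 3 and 3 against MEF, and laminin chains 5 higher and 5 lower of 10 against D4 and 7 higher and 3 lower against MEF. Among members not yet given for iPSC, Lama4 was lower than in D4 (-2.29 ± 0.05) and MEF (-1.61 ± 0.05), Lama5 higher (0.95 ± 0.05 and 1.81 ± 0.05), and Itgb2 lower (-0.51 ± 0.06 and -2.16 ± 0.06). Lamb3 (-0.58 ± 0.04) and Lamc1 (-0.37 ± 0.04) were lower than in D4 but higher than in MEF (1.18 ± 0.04 and 0.38 ± 0.04), and Itga8 was lower than in both (-1.27 ± 0.06 and -1.11 ± 0.06). No class was compared with others by a test.

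**Figure D5:**
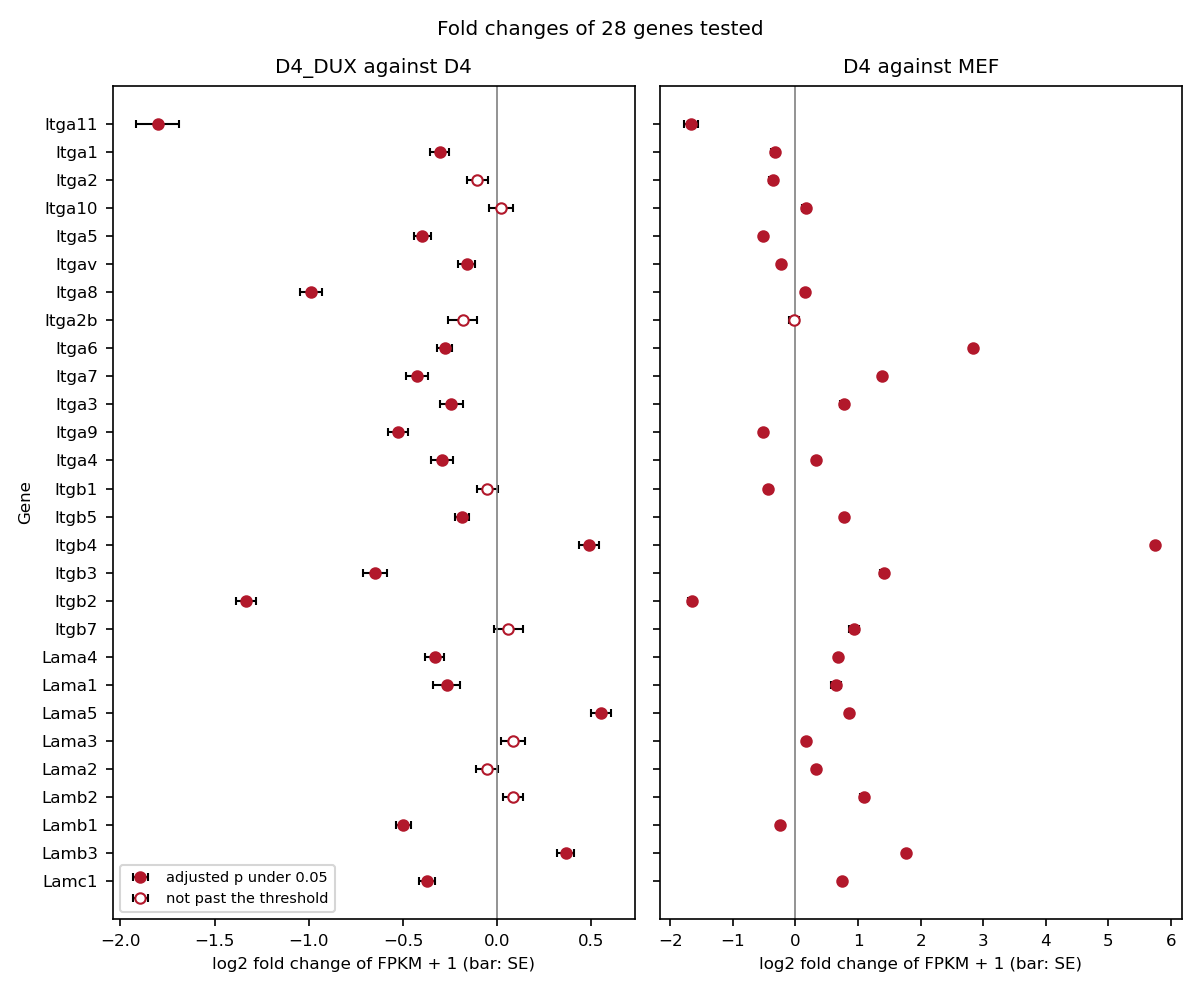
Log2 fold change of FPKM + 1 with its SE for 28 tested members, in D4_DUX against D4 (left) and D4 against MEF (right); the panels have different scales. Filled points had an adjusted p under 0.05 by limma: 20 of 28 on the left, mostly below 0, and 27 of 28 on the right, where Itgb4 reaches 5.74.

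The proteins that join integrins to actin and signal for them moved in both directions. Of 24 tested adhesion adaptors, 12 were higher and 10 lower in D4 than in MEF, and 6 higher and 3 lower in libraries labelled D4_DUX than in D4, with median log2 fold changes of 0.14 and 0.08 beside 0.03 and 0.02 over all genes. Of all genes tested, 34.2% were higher and 27.6% lower in D4 than in MEF. The 9 of 24 adaptors called between the day 4 treatments were close to the 35.4% of all genes called there. The median in libraries labelled D4_DUX was 0.05 without D4 replicate 1 and 0.05 under quantile normalization, and that in D4 against MEF was 0.07 under quantile normalization. Between the day 4 treatments, the integrin-linked kinase Ilk (0.24 ± 0.04), tensin Tns1 (0.32 ± 0.05) and talin Tln1 (0.16 ± 0.04), which activates integrins, were higher in libraries labelled D4_DUX, Tln1 no longer under quantile normalization (0.14, adjusted p = 0.05), and the actin crosslinker Actn1 was lower (-0.31 ± 0.04). The higher count there was 3 without D4_DUX replicate 2, and the lower count was 1 without D4_DUX replicate 3. In D4 against MEF, zyxin Zyx (1.60 ± 0.06) was higher, and Ilk (-0.87 ± 0.04) and Fermt3 (-1.76 ± 0.05), the kindlin of blood cells, were lower; the macrophage markers above fell with Fermt3, and their part was not tested. In iPSC, 5 adaptors were higher and 15 lower than in D4, among them Tns1 (-2.61 ± 0.05) and Parva (-1.50 ± 0.04) lower and Parvb (2.97 ± 0.07) higher. Against MEF, 7 were higher and 15 lower, with Tns1, Ilk and Fermt3 lower (-1.91 ± 0.05, -1.24 ± 0.04 and -1.57 ± 0.05) and Parvb higher (2.25 ± 0.07). Of all genes, 48.5% were higher and 33.9% lower in iPSC than in D4, and 51.0% and 31.2% than in MEF. The 20 of 24 adaptors called in iPSC against D4 were close to the 82.4% of all genes called there.

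Other basement membrane genes gave 11 higher and 5 lower of 21 tested in D4 against MEF, and 4 higher and 6 lower in libraries labelled D4_DUX against D4, with medians of 0.22 and -0.08. Shares over all genes were 34.2% higher and 27.6% lower in the first comparison, and 20.1% and 15.4% in the second. Under quantile normalization the D4 against MEF median was 0.10, and with a pseudocount of 0.1 the other was -0.12. Collagen genes Col18a1 and Col15a1, of the basement membrane zone, moved apart in libraries labelled D4_DUX, at -1.04 ± 0.03 and 0.80 ± 0.06, and Col4a5, a collagen IV chain, fell (-0.22 ± 0.04). Cd151, a tetraspanin that binds laminin-binding integrins, was higher in libraries labelled D4_DUX than in D4 (0.31 ± 0.04) and higher in D4 than in MEF (1.5 ± 0.04), while Itga6, Itga7 and Itga3 were lower in the first of these comparisons and higher in the second. In D4 against MEF, Col4a5 rose (1.18 ± 0.04) and Col18a1 and the calcium-binding matrix protein Smoc1 fell (-1.67 ± 0.03 and -1.57 ± 0.05). The lower count in libraries labelled D4_DUX was 10 without iPSC replicate 3, which enters through the shared spread. In iPSC, 6 genes were higher and 12 lower than in D4, with Col18a1 (3.03 ± 0.03) and Smoc1 (2.77 ± 0.05) higher and Col4a5 (-2.91 ± 0.04) and Dag1 (-1.12 ± 0.03), which encodes the laminin receptor dystroglycan, lower. Against MEF, 7 were higher and 12 lower, with Bcam (3.39 ± 0.09), a receptor for laminins with the Lama5 chain, and Col18a1 (1.36 ± 0.03) higher and Col4a5 (-1.73 ± 0.04) and Smoc2 (-2.26 ± 0.07) lower. Of all genes, 48.5% were higher and 33.9% lower in iPSC than in D4, and 51.0% and 31.2% than in MEF.

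Of the ligands of RGD-binding integrins, more were lower than higher in each comparison. In D4 against MEF, 4 of 17 were higher and 11 lower, with a median of -0.58, and Tgfbi (-2.37 ± 0.07), Fbn2 (-1.68 ± 0.08), Edil3 (-1.57 ± 0.06) and Tgfb3 (-0.87 ± 0.05) had the smallest adjusted p. In libraries labelled D4_DUX against D4, 1 was higher and 12 lower, with a median of -0.53; the single higher call was lost in 15 of the 23 other settings. Here the matricellular genes Ccn2 (-1.66 ± 0.11), Thbs2 (-1.19 ± 0.07) and Ccn1 (-1.12 ± 0.05) and Tgfb3 (-0.53 ± 0.05), whose latent form is held by RGD-binding integrins, led by adjusted p. In iPSC, 3 were higher and 11 lower than in D4, with Egfl7 (2.27 ± 0.08) higher and Fbn2, Thbs1 and Tgfb3 lower (-2.71 ± 0.08, -1.95 ± 0.07 and -1.79 ± 0.05). Against MEF, 2 were higher and 13 lower, led by Fbn2, Tgfbi, Tgfb3 and Fbn1 (-4.39 ± 0.08, -2.94 ± 0.07, -2.66 ± 0.05 and -2.47 ± 0.09). Of all genes, 34.2% were higher and 27.6% lower in D4 against MEF, and 20.1% and 15.4% in libraries labelled D4_DUX against D4. In iPSC these shares were 48.5% and 33.9% against D4, and 51.0% and 31.2% against MEF. The 14 of 17 ligands called in iPSC against D4 were close to the 82.4% of all genes called there.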

How the data were processed

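The deposited table gives FPKM per gene in 12 polyA-selected, stranded, paired-end libraries of 150 bp reads made with 15 PCR cycles, per the labels' protocols. FPKM values were made by the authors on mm10, per the submitters' processing notes. No aligner, counter, use of strand or annotation is stated in the labels or headers. Of 40384 gene IDs, 40225 (99.6%) matched GENCODE M21, which gave symbols, coordinates and the exon lengths used to turn low FPKM steps into approximate fragments. These were often fractional, so no count test was used as the main test, and 3 fragments served as the detection floor.

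The members and all gene lists were chosen with earlier results of these data known. The 17114 genes that reached an FPKM of 1 in 3 or more of the 12 libraries were tested in R 4.3.3 with limma 3.58.1 on log2(FPKM + 1), with 1 model over the 4 groups, moderated variances and Benjamini-Hochberg adjustment over all genes tested. The procedure was tested on simulated data. Some genes, 1 of them a member, are counted in the totals but not reported here by name; all other members are accounted for. Members with a group mean of at least 5 FPKM are given per library (Itga3, at 5.25 FPKM in iPSC, was just inside and Itgb7, at 4.27 FPKM in iPSC, just outside), and from each further list up to 4 genes per comparison are named by smallest adjusted p. No 2 libraries held identical values. Alternatives covered the pseudocount, the filter, scaling, voom on recovered fragments, the groups fitted, a replicate block and each library left out. Promoter windows are RefSeq's for GRCm38.p6.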

Additional observations from a re-analysis of the deposited data

How the results depend on the processing

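The 116 results of the tested members (29 genes in 4 comparisons) were recomputed under 23 other settings, giving 2628 values, of which 2564 kept their direction and their side of the threshold; of 104 calls, 95 held under every setting. The cause of the changes was not tested. Signs changed in these cases: Itga10 in D4_DUX against D4 was -0.007 without D4_DUX replicate 3 and -0.016 without D4 replicate 2 (range over left-out libraries -0.016 to 0.061); Itga2b in D4 against MEF was 0.048 without D4 replicate 1 and 0.038 without MEF replicate 3 (range -0.077 to 0.048); Itga4 in iPSC against D4 was 0.021 without iPSC replicate 3 (range -0.083 to 0.021). After median-ratio scaling, Itga9 in iPSC against D4 was -0.026, and Itgb3 and Lamb1 in iPSC against MEF were -0.016 and -0.109. Under quantile normalization, Itga3, Itga9 and Itgal in iPSC against D4 were -0.065, -0.212 and -0.218, and Itgb3 in iPSC against MEF was -0.082.

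With only genes at FPKM of at least 5 tested, 9 members were called lower in iPSC against MEF, since fewer were tested. Leaving out each library in turn gave 3 to 4 members higher and 15 to 18 lower in D4_DUX against D4, 16 to 19 higher and 9 lower in D4 against MEF, 8 to 9 higher and 18 lower in iPSC against D4, and 13 to 15 higher and 14 lower in iPSC against MEF. Replicate numbers did not pair the libraries (r of deviations -0.15 to 0.06, over 0.1 in 0 of 12 pairs); with a replicate block, members higher and lower numbered 3 and 17 in D4_DUX against D4, 18 and 9 in D4 against MEF, 9 and 18 in iPSC against D4 and 15 and 14 in iPSC against MEF.

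Shares are given here for iPSC, D4_DUX, D4 and MEF in that order. With fragments in place of FPKM, the collagen-binding share was 7.26, 4.80, 8.78 and 21.5%, the RGD-binding share 60.9, 62.2, 58.4 and 69.5%, the laminin-binding share 23.6, 29.2, 28.6 and 5.17%, and the Lama1 share 40.6, 2.54, 2.89 and 2.44%, while the Lama4 share was 19.4% in iPSC and 81.2% in MEF. Without the most abundant member (Itga5 or Lama4), the collagen-binding share was 12.8, 6.63, 14.9 and 42.2%, the RGD-binding share 36.7, 47.6, 41.5 and 45.5%, the laminin-binding share 40.4, 41.9, 39.3 and 7.79%, and the Lama1 share 54.2, 11.2, 18.2 and 16.9%. Without each library in turn, the collagen-binding share ranged 6.50 to 6.88, 4.38 to 4.44, 9.73 to 10.1 and 24.9 to 25.7%.

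Of 32 counts over the further gene lists, 12 moved by over 1.5 times in some setting, and of 56 results of genes named from those lists, 2 changed (Tln1 in D4_DUX against D4 and Itgal in iPSC against D4). All 20 medians of the member and pathway lists moved in some setting, in 115 of 460 values. Adhesion adaptors higher in iPSC numbered 3 against D4 and 2 against MEF after median-ratio scaling. Low fragment numbers limit Itgb6, and Itgb4, Itgb7, Lama3, Lamb3 and Lamc3 in MEF.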
